A study of Homo sapiens with 4 samples.

Results

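Ribosome biogenesis and nucleolar processing factors are the proteins that fold, modify, cut and carry the precursors of ribosomal RNA while the subunits are being built. A list of 60 such genes was read from the count table by gene symbol, and 58 of them were present among 18917 genes. PPAN and NAT10L had no entry in the table under these symbols. The list covers the core proteins of the small nucleolar ribonucleoproteins (snoRNPs), the processome that builds the small subunit, the factors that mature the small subunit, and the assembly factors of the large subunit. All 58 passed the filter on low counts, so none was lost to it.

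The libraries came from a human embryonic kidney line, which the sample labels call HEK293 and the study's methods HEK-293T. There were 2 libraries from the WT parental cells and 2 from cells in which THUMPD1 had been disrupted with CRISPR-Cas9 (KO), all from total RNA of cells grown with serum and glutamine and without further treatment. THUMPD1 is the adapter with which the acetyltransferase NAT10 places N4-acetylcytidine on tRNA. The comparison asked how transcript levels differ when this adapter is missing. According to the methods the KO cells had gone through a single-cell sort, so genotype and clone cannot be told apart. Nothing in the labels says that replicates were separate cultures, and p-values then measure only the spread between these libraries, which may be technical. The methods give more samples per genotype than the 2 analysed here.

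Ribosomes are built mainly in the nucleolus, where RNA polymerase I makes a long precursor that holds the small subunit RNA and most of the large subunit RNA. Box C/D and H/ACA snoRNPs methylate and pseudouridylate this precursor, while the processome, a large particle nucleated by the U3 snoRNP, folds and cleaves the small subunit part. Genes for these factors are known as targets of MYC, which binds the DNA letters CACGTG (the E-box), and many are transcribed in step with cell growth.

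The 250 bases before and the 50 bases after the start of transcription were therefore read for CACGTG, which is the same on both strands. A RefSeq promoter (GRCh38.p14) was found for 49 of the 58 members. At least 1 E-box was present in 15 of the 49 (30.6%), against 7.43% of all 27305 promoters and 10.0% of the 10586 promoters of genes tested. The E-box nearest the 5′ end of the window lay past the start in 10 of these 15 members (66.7%), against 9.33% of the 1061 tested genes that hold one. Of 91 promoters of other ribosome biogenesis factors, described further on, 28 (30.8%) held an E-box, nearly the same share, and in 32.1% of these it lay past the start. Stretches of at most 30 bases around this E-box are shown for the 8 members with an E-box that were lower in KO. They are also shown for NOP14 and GNL2, which hold one, were not called and had values of 0.03 and 0.06. NOP10, IMP4, UTP20, NOC3L and MRTO4 hold one too and were not called, with values from -0.27 to -0.13, and are not shown. The stretches read 5′ to 3′ on the strand of the gene, with the E-box in capitals. WDR43, UTP18, LTV1 and PNO1 are on the plus strand and the others on the minus strand.
FBL, chr19:39846356-39846385: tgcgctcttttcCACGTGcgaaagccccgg
WDR43, chr2:28894658-28894687: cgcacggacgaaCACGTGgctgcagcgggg
UTP18, chr17:51260445-51260474: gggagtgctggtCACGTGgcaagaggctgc
LTV1, chr6:143843354-143843383: gtcctggggctgCACGTGtggtgaggccta
PNO1, chr2:68157885-68157914: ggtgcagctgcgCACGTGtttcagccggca
RRP9, chr3:51941892-51941921: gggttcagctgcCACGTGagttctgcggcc
PES1, chr22:30591880-30591909: tccttggcagggCACGTGcgggaggaagtg
NOP2, chr12:6568242-6568268: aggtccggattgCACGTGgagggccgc
NOP14, chr4:2963374-2963403: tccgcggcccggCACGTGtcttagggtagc
GNL2, chr1:37595917-37595946: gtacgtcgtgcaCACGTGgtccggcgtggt
In these stretches the E-box of UTP18 lies before the start, that of RRP9 spans it, and the others lie past it. The start is that of the RefSeq promoter. For PES1 and NOP2 it lies inside the span of the gene given further on, so their E-box is past an internal start. The share of promoters with an E-box was 8 of 23 (34.8%) among members lower in KO and 7 of 26 (26.9%) among members not called. These matches describe the sequence and do not show that a factor binds there.

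Library totals ran from 7875722 to 11362363 counts. Replicates differed by more than sampling noise, with a chi-square per degree of freedom of 4.18 between the WT and 7.19 between the KO libraries, and each was kept as its own replicate. THUMPD1 itself was counted 356 and 468 times in WT and 71 and 58 times in KO, and it fell by 2.93 on the log2 scale (SE 0.17, adjusted p = 1.27e-12). This and every adjusted p below came from the quasi-likelihood test of edgeR, corrected over all genes by the Benjamini-Hochberg method. Of 13128 genes tested, 1594 were lower and 1154 higher in KO at an adjusted p under 0.05, and scaling by library size alone gave 1158 lower and 2081 higher. VIM and CDH2, which this line expresses, had 797 counts or more in every library. Among markers of other cell types, PTPRC, CD3E, CD14, ALB, APOA2, TTR, PECAM1, DCN and HBB had 6 counts or fewer in every library, while COL1A1 had 194 to 246. In bulk RNA, fewer cells of a kind and less RNA per cell cannot be told apart.

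Most of the ribosome biogenesis factors had a value below 0 in KO, and the group was not tested as a set. Of the 58, 27 fell, none passed the test in the higher direction and 31 were not called. Thus 46.6% were lower where 12.1% of all genes tested were lower and 8.79% higher. The list was chosen with earlier results of these data known, so its shares are not independent of them. The median log2 fold change over the 58 was -0.26, against 0.01 over all genes tested, and the values ran from -0.72 for NOP2 to 0.15 for MPHOSPH10. At an unadjusted p under 0.05, 32 members were lower and 1, NPM1, was higher. NPM1 passed the adjusted threshold with DESeq2, with library size or upper quartile scaling, and with the replicate number as a block, but not with limma-voom or RLE scaling. Without KO replicate 1 the number of members called lower was 17, against 20 to 25 without each of the other libraries.

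Seen without the test, 53 of the 58 values (91.4%) were below 0, where 48.6% of all genes were, and 45 to 51 were below 0 with library size, upper quartile or quantile scaling. Both KO libraries were below both WT libraries in 44 members (75.9%), an arrangement that 30.0% of all genes tested had. In 4 members, NPM1, MPHOSPH10, RIOK2 and GNL2, both KO libraries were above both WT libraries, which 30.4% of all genes had, and in 10 the genotypes overlapped. The median deviation of the members from the WT mean was -0.25 in KO replicate 1 and -0.23 in KO replicate 2 on the log2 scale. In the WT libraries it was -0.016 and 0.016. These 2 values mirror each other because the mean is that of the same 2 libraries. Transcripts of the 58 genes made up 0.885% and 0.918% of scaled counts in WT and 0.811% and 0.825% in KO.

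**Figure D1:**
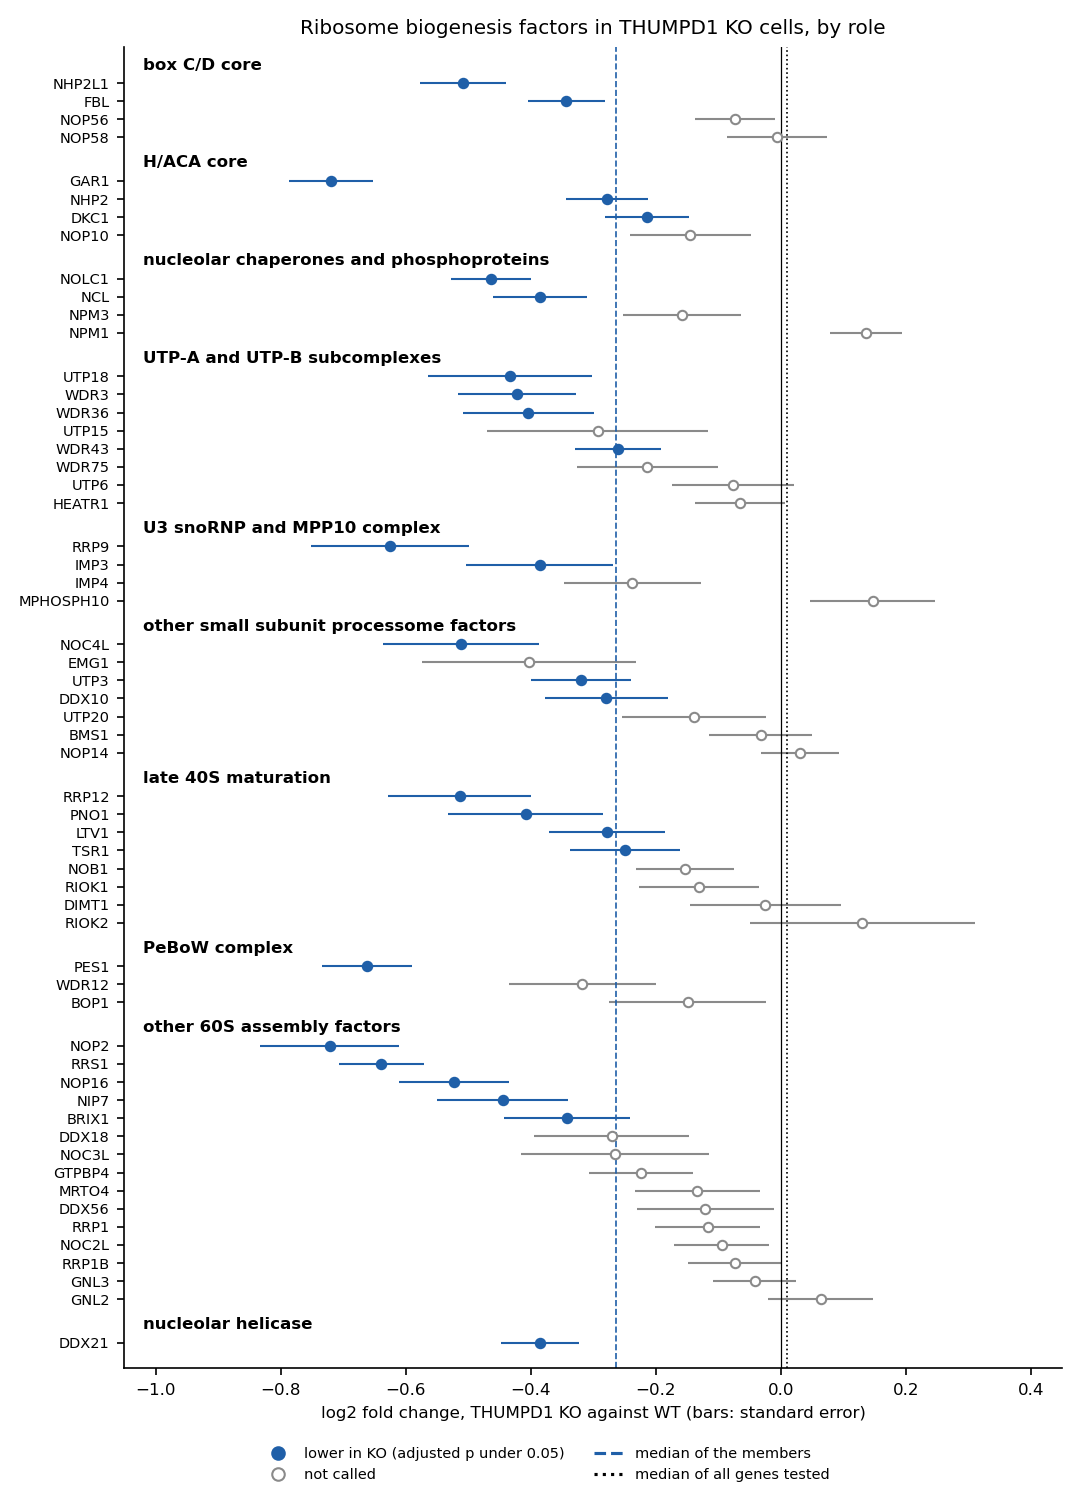
Log2 fold change of each of the 58 factors in THUMPD1 KO against WT cells, grouped by role, with bars for the standard error from the edgeR fit. Filled points are the 27 factors lower in KO and open points the 31 not called. The dashed line is the median of the members (-0.26) and the dotted line that of all genes tested (0.01).

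The snoRNP core proteins, which carry the guide RNAs for modification of the ribosomal RNA precursor, fell in 5 of 8 cases. GAR1, a core protein of H/ACA snoRNPs at chromosome 4, 109815510 to 109824740 on GRCh38, stood at 373 and 343 CPM in WT and at 206 and 228 CPM in KO (CPM are counts divided by the TMM-scaled size of the library and set to a common total). Both KO libraries were far below both WT libraries, and GAR1 fell by 0.72 on the log2 scale (SE 0.07, adjusted p = 1.78e-08, edgeR). The other H/ACA proteins moved less, with NHP2 at -0.28, the pseudouridine synthase DKC1 at -0.21 and NOP10, which was not called, at -0.14. The calls of NHP2 and DKC1 were lost without KO replicate 1, at -0.22 and -0.14, and that of DKC1 also without WT replicate 1, at -0.20. Per kilobase of transcript, GAR1 was at 353 CPM in WT and 214 CPM in KO.

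Among the box C/D proteins, NHP2L1 (chromosome 22, 41673933 to 41690504), which binds the kink-turn of box C/D RNAs and also of U4 in the spliceosome, had 184 and 178 CPM in WT and 128 and 126 CPM in KO. It fell by 0.51 (SE 0.07, adjusted p = 6.73e-06, edgeR), and the genotypes were well apart. The methyltransferase FBL was at 556 and 575 CPM in WT and 425 and 467 CPM in KO, and it fell by 0.34. Its partners in the same particle, NOP56 at -0.07 and NOP58 at -0.01, were not called, and the genotypes overlapped for NOP58. FBL, NOP56, NOP58 and NHP2L1 are parts of 1 particle, and their transcripts covered the span from no call to a fall of 0.51. On chromosome 22, where NHP2L1 lies, the median of all genes tested was -0.42. With the median of its chromosome subtracted from each, NHP2L1 was at -0.09, NOP56 at -0.08, NOP58 at -0.05 and FBL at -0.29. The differences between these genes were not tested.

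Among the chaperones and phosphoproteins of the nucleolus, NOLC1, which accompanies snoRNPs, had 232 and 240 CPM in WT and 171 and 171 CPM in KO. The KO libraries were almost equal and far below WT, with a fall of 0.46 (SE 0.06, adjusted p = 8.54e-06, edgeR). Nucleolin (NCL), which binds the ribosomal RNA precursor, was at 1384 and 1730 CPM in WT and 1138 and 1249 CPM in KO and fell by 0.38, with a wider spread between its WT libraries than between its KO libraries. Without WT replicate 2 its value was -0.21, still past the threshold. Nucleophosmin (NPM1, chromosome 5, 171387116 to 171411810), a nucleolar histone chaperone, went the other way, from 1359 and 1356 CPM in WT to 1524 and 1460 CPM in KO. Its log2 fold change was 0.14 (SE 0.06) and its adjusted p 0.0976. NPM1 has 49 named pseudogenes, so its count may be shared with them. NPM3 was at -0.16 and was not called.

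Of the 27 factors of the small subunit, 13 fell (48.1%), with a median of -0.26. In the UTP-A and UTP-B subcomplexes, which join the precursor early, 4 of 8 fell: UTP18 at -0.43, WDR3 at -0.42, WDR36 at -0.40 and WDR43 at -0.26. WDR3 (chromosome 1, 117929720 to 117966543) had 79.0 and 86.4 CPM in WT and 57.7 and 66.3 CPM in KO, without overlap (SE 0.09, adjusted p = 0.00204, edgeR). UTP18 was at -0.21 without WT replicate 2 and -0.37 without KO replicate 1 and then not called, and WDR36, at -0.32 without WT replicate 2 and -0.33 without KO replicate 2, was not called either. WDR43 lost its call without KO replicate 2, at -0.24. UTP15 at -0.29 (SE 0.18) and WDR75 at -0.21 (SE 0.11) were not called, while UTP6 and HEATR1 were at -0.08 and -0.07.

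RRP9, a protein specific to the U3 snoRNP (chromosome 3, 51933429 to 51941904), was at 50.1 and 58.6 CPM in WT and at 30.6 and 40.4 CPM in KO. It fell by 0.62 (SE 0.13, adjusted p = 8.01e-04, edgeR), and KO replicate 2 was nearer to WT than KO replicate 1. IMP3, IMP4 and MPHOSPH10 form the MPP10 complex that docks on U3. IMP3 fell by 0.39, a call kept in 1 of the 4 fits with a library left out (that without WT replicate 1), and IMP4 was not called at -0.24. MPHOSPH10 (chromosome 2, 71130310 to 71150101) was higher in both KO libraries, at 61.0 and 56.3 CPM against 51.8 and 54.1 CPM in WT, but was not called (0.15, SE 0.10, adjusted p = 0.319, edgeR). It has 8 named pseudogenes.

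Among the other processome factors, NOC4L (chromosome 12, 132144457 to 132152473), the partner of NOP14, had 42.4 and 55.1 CPM in WT and 33.9 and 35.02 CPM in KO. The WT libraries were further apart than the KO libraries, and NOC4L fell by 0.51 (SE 0.12, adjusted p = 0.00418, edgeR). Without WT replicate 2, NOC4L was at -0.30 and not called. NOP14 itself (chromosome 4, 2937933 to 2963406) was at 239 and 252 CPM in WT and 253 and 249 CPM in KO, and its value of 0.03 (SE 0.06, adjusted p = 0.774) was not called, with overlapping genotypes. The methyltransferase EMG1 had a value of -0.40 with an SE of 0.17 and was not called, nor were UTP20 at -0.14 and the GTPase BMS1 at -0.03. UTP3 fell by 0.32, but was not called without KO replicate 1 (-0.23). The helicase DDX10, at -0.28 with an adjusted p of 0.0430 (edgeR), passed the threshold in none of the 4 fits with a library left out, where it ran from -0.33 to -0.23, and in 4 of 8 alternatives with all libraries.

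Late maturation of the small subunit, in which the particle is exported and its last RNA end is cut, had 4 of 8 factors lower. RRP12 (chromosome 10, 97356358 to 97426076), which takes part in export, was at 46.8 and 49.2 CPM in WT and at 34.2 and 33.1 CPM in KO. It fell by 0.51 (SE 0.11, adjusted p = 0.00188, edgeR), with tight replicates in both genotypes. PNO1 fell by 0.41, LTV1 by 0.28 and TSR1 by 0.25, and each of these calls was lost when some of the libraries were left out. PNO1 was at -0.26 without WT replicate 2 and -0.25 without KO replicate 1, and not called in either case. LTV1 was called only when KO replicate 2 was left out and stood at -0.16 without KO replicate 1. TSR1 was called only when WT replicate 1 was left out and stood at -0.12 without WT replicate 2. The endonuclease NOB1 (chromosome 16, 69741871 to 69754926) had 99.9 and 99.4 CPM in WT and 89.6 and 89.6 CPM in KO, without overlap, but was not called (-0.15, SE 0.08, adjusted p = 0.177, edgeR). The kinase RIOK2 (chromosome 5, 97160867 to 97183247) was the lowest of the 58 per kilobase in WT. It had 13.6 and 14.9 CPM in WT and 15.8 and 15.5 CPM in KO and was not called (0.13, SE 0.18, adjusted p = 0.656, edgeR). RIOK1 at -0.13 and the dimethylase DIMT1 at -0.02 were not called either.

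**Figure D2:**
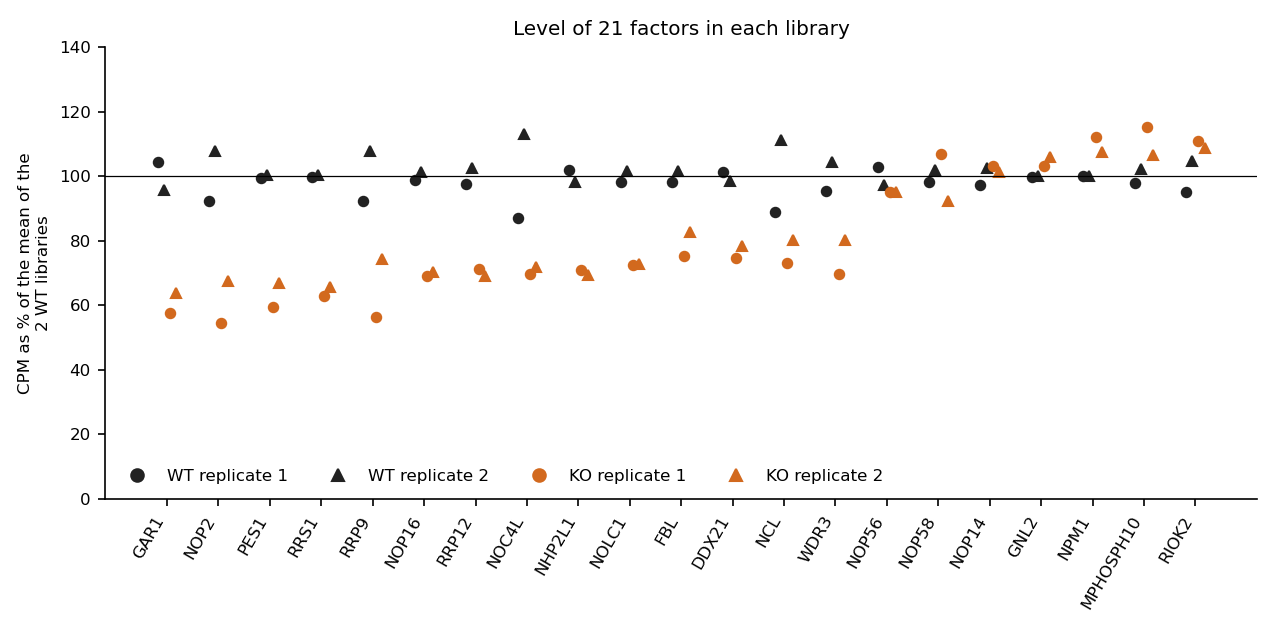
CPM in each library as a percentage of the mean of the 2 WT libraries for 21 factors, with circles for replicate 1 and triangles for replicate 2, black for WT and orange for KO. From GAR1 to WDR3 both KO points lie below both WT points. For NOP58 and NOP14 the genotypes overlap, and for GNL2, NPM1, MPHOSPH10 and RIOK2 both KO points lie above.

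The 18 assembly factors of the large subunit fell in 6 cases (33.3%), with a median of -0.24. PES1 (chromosome 22, 30576625 to 30607083), the scaffold of the PeBoW complex needed to process the precursor of the large subunit RNAs, stood at 191 and 193 CPM in WT and 114 and 129 CPM in KO. It fell by 0.66 (SE 0.07, adjusted p = 2.67e-07, edgeR), and the WT libraries were almost equal. Its partners had smaller values and were not called, WDR12 at -0.32 (adjusted p = 0.0563) and BOP1 at -0.15.

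NOP2 (chromosome 12, 6556863 to 6568691), a cytosine methyltransferase of the large subunit RNA, fell by 0.72, as much as GAR1 (SE 0.11, adjusted p = 3.79e-05, edgeR). Its libraries stood at 66.4 and 77.6 CPM in WT and 39.2 and 48.6 CPM in KO. The highest KO library was well below the lowest WT library. An unnamed protein-coding gene shares 2538 bases of exon with NOP2 on the same strand, so the count cannot be assigned to NOP2 alone.

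RRS1 (chromosome 8, 66429014 to 66430733), which brings the 5S particle into the large subunit, was at 197 and 199 CPM in WT and 125 and 130 CPM in KO. This was a fall of 0.64 (SE 0.07, adjusted p = 1.79e-07, edgeR), with both pairs of replicates close together. NIP7 (chromosome 16, 69337996 to 69343106) had 63.8 and 57.6 CPM in WT and 42.9 and 46.01 CPM in KO and fell by 0.44 (SE 0.10, adjusted p = 0.00308, edgeR). NOP16 fell by 0.52 and BRIX1 by 0.34, and BRIX1 was not called without WT replicate 1 (-0.31) or KO replicate 1 (-0.29).

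The remaining 10 large subunit factors were not called. The nucleolar GTPases gave GNL3 at -0.04, GTPBP4 at -0.22 and GNL2 at 0.06. GNL2 (chromosome 1, 37566816 to 37595937) had 79.4 and 79.7 CPM in WT and 82.1 and 84.2 CPM in KO (SE 0.08, adjusted p = 0.639, edgeR), slightly higher in both KO libraries. The helicase DDX18 had an uneven pair of KO libraries and a value of -0.27, and NOC3L was at -0.27, MRTO4 at -0.13, DDX56 and RRP1 at -0.12, NOC2L at -0.09 and RRP1B at -0.07.

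DDX21 (chromosome 10, 68956135 to 68985068), an RNA helicase that links RNA polymerase I transcription with processing of the precursor, was at 323 and 314 CPM in WT and 238 and 250 CPM in KO. Both KO libraries were below both WT libraries, with a fall of 0.38 (SE 0.06, adjusted p = 6.74e-05, edgeR).

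**Figure D3:**
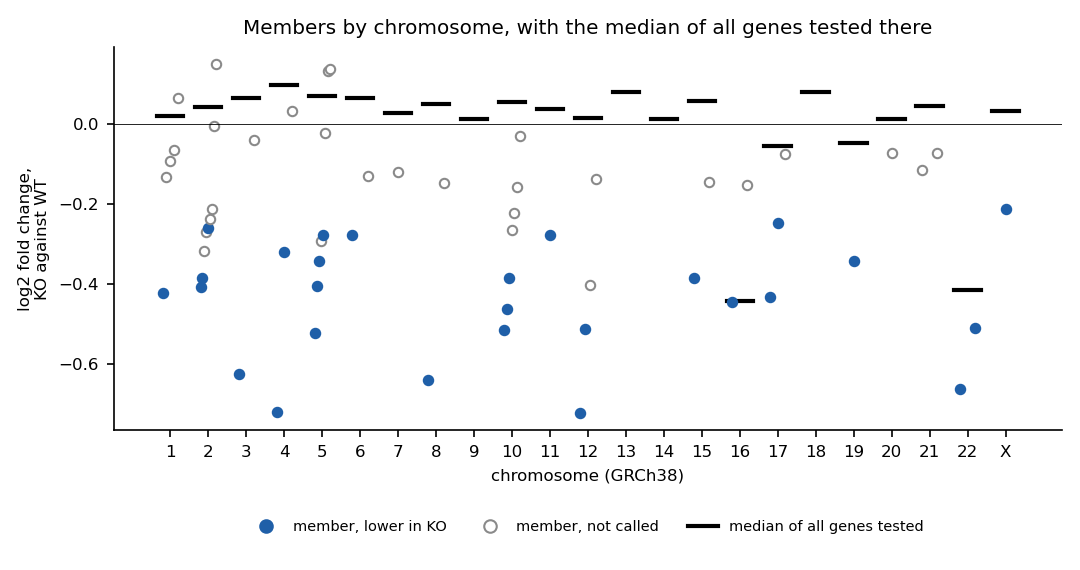
Log2 fold change of each factor by chromosome (GRCh38), filled where lower in KO and open where not called, with a bar for the median of all genes tested on that chromosome. Medians of chromosomes 16 and 22 lie at -0.44 and -0.42, and those of the others between -0.06 and 0.10.

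Position in the genome moved with the values for a few members. On chromosome 16 the median log2 fold change of 573 genes was -0.44 and on chromosome 22 that of 311 genes was -0.42, while on the other chromosomes the medians lay between -0.06 and 0.10. THUMPD1 lies on chromosome 16. NOB1 and NIP7 on chromosome 16 and PES1 and NHP2L1 on chromosome 22 are the 4 members there, and 3 of them were lower, as were 290 and 187 of all genes on these chromosomes. Of the 54 members elsewhere, 24 were lower, with a median of -0.25, against 9.1% of the 12127 genes on other chromosomes. After the median of its chromosome was subtracted from each gene, 52 members were below 0 as before and the median of the 58 was -0.27. NOB1 turned from -0.15 to 0.29 and NOP14 from 0.03 to -0.06, while PES1 was then at -0.25, NHP2L1 at -0.09 and NIP7 at -0.0044. The part of chromosome number in the values of NOB1, NIP7, PES1 and NHP2L1 was not tested.

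Highly counted genes were called more often in these data, and 54 of the 58 members had a mean of 25 CPM or more. In the band from 50 to 100 CPM, 9 of 20 members (45%) were lower, against 16.5% of genes of the same level. At 200 CPM and over 7 of 11 members (63.6%) were lower against 24.2% of genes, and under 25 CPM none of 4 was called by edgeR against 5.69%. Among members in which a snoRNA gene lies, 4 of 7 were lower, with a median of -0.21, and 23 of 51 among the rest, with a median of -0.28. Exons of 20 members overlap those of another gene, and strand use in counting is not stated. Of these 20, 9 were lower, and of the 38 without an overlap 18 were lower, with a median of -0.27. Of the 17 members with a named pseudogene 9 were lower, and of the 41 without one 18.

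A further list of 111 factors of the same pathway, none of them among the 58, was drawn up from their known roles. Earlier results of these data were known when it was drawn up, so it is not an independent check. Of these, 30 were lower and 1 higher, with a median of -0.15, and without KO replicate 1 the number lower was 19. The 30 made up 27% of the list, against 12.1% of all genes tested. Without factors on chromosomes 16 and 22, 24 of 102 (23.5%) were lower, against 9.1% of all genes on other chromosomes. Among snoRNP assembly factors the share lower was 14.3%. Of 32 other small subunit factors 12 were lower (37.5%), and of 49 other large subunit factors 16 were lower (32.7%) and 1 higher. The largest falls were those of NOL6, a processome factor, by 0.83, of NOL12, a nucleolar exonuclease on chromosome 22, by 0.76, and of the helicase DHX37 by 0.69. NOL6 stood at 37.2 and 45.3 CPM in WT and at 22.4 and 24.2 CPM in KO, without overlap. NSA2, a large subunit factor, rose by 0.23, but was not called by DESeq2 or in fits without WT replicate 2 (0.19), KO replicate 1 (0.23) or KO replicate 2 (0.24). Of 14 snoRNP assembly factors, SHQ1 and ZNHIT6 were lower, and SHQ1 was called in 1 of 4 fits with a library left out (that without WT replicate 1).

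The RNA exosome and its partners trim precursors and degrade the spacers. None of 16 was called in the main edgeR fit, where 12.1% of all genes tested were lower and 8.79% higher. At an unadjusted p under 0.05, 3 of the 16 were lower and 1 higher, against 2343 and 2027 of all 13128 genes. The median of the 16 was -0.02. With all libraries kept, DESeq2 and limma-voom also called none of them, and scaling by library size alone called 2 higher. The differences from all genes and from the other lists were not tested. NAT10, the acetyltransferase that THUMPD1 serves and that also acetylates the small subunit RNA, had 126 and 135 CPM in WT and 113 and 122 CPM in KO. It was not called (-0.15, SE 0.08, adjusted p = 0.160, edgeR), although both KO libraries were below both WT libraries.

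Of 18 genes outside the lists above whose introns hold snoRNAs, only 6 were in the table, and these did not share 1 direction. HSPA8, TNPO2 and CCDC12 were lower while EIF4A2 and GNB2L1 were higher. Of all genes tested, 12.1% were lower and 8.79% higher. The 6 had a median of 159 CPM in WT, against 32.8 CPM over all genes tested, and highly counted genes were called more often. TAF1D, at -0.04, was not called. EIF4A2, a helicase of translation initiation, rose by 0.38 from 187 and 154 CPM in WT to 216 and 226 CPM in KO (SE 0.08, adjusted p = 6.64e-04, edgeR), and was at 0.24 without WT replicate 2, still called. TNPO2 was not called without KO replicate 1 (-0.18). GNB2L1, the ribosomal scaffold protein RACK1, rose by 0.26.

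**Figure D4:**
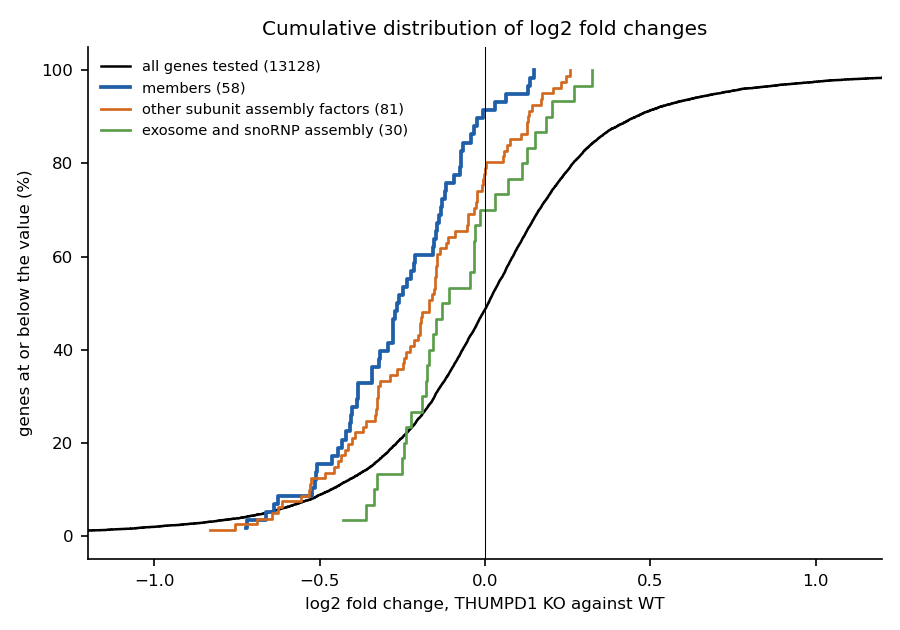
Share of genes (in %) at or below each log2 fold change for the 58 factors, 81 other subunit assembly factors, 30 exosome and snoRNP assembly factors and all 13128 genes tested. The line of the 58 factors lies furthest to the left over most of its course, and 91.4% of them are below 0 against 48.6% of all genes.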

How the data were processed

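The authors deposited raw counts per gene symbol and library, whole numbers without normalization, for 2 WT and 2 KO libraries of total RNA (Zymo-Seq RiboFree kit per the labels). The submitters' processing notes name hg19, while the study's RNA-seq methods name STAR and RSEM on another build, and the sources used here do not say which of them gave these counts. A table of the authors' own comparison (fold changes and p-values) was not used. Members and lists were chosen with earlier results of these data known.

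The 13128 genes that reached 1 CPM in 2 or more libraries were tested in R 4.3.3 with edgeR 4.0.16 (TMM, glmQLFit, glmQLFTest) and Benjamini-Hochberg adjustment at 0.05. The SE is the log2 fold change divided by the square root of F. CPM are on TMM-scaled library sizes. An exact permutation test of 2 against 2 libraries cannot give a two-sided p below 0.333 and was not used. Alternatives were DESeq2 1.42.0, limma 3.58.1 (voom with quantile normalization), other scalings, other filters, an adjusted p under 0.01, the replicate number as a block and leaving out each library. Values in every library are given for the gene with the lowest adjusted p in each role, the 5 largest falls and the 5 largest positive values, members on chromosomes 16 and 22, and THUMPD1. FBL and NCL were added after their values were seen. Of the 111 other factors and the snoRNA host genes, the 3 largest falls, the genes higher in KO and NAT10 are named. Values for NOL6 and EIF4A2 in each library, and the names SHQ1, ZNHIT6, HSPA8, TNPO2 and CCDC12, were added after values were seen.

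Genes were placed on GRCh38 with GENCODE 44, 17318 by symbol and 1200 through a RefSeq synonym, with length and GC content of the canonical transcript. The files' own coordinates were not used. Promoters came from RefSeq (GRCh38.p14). The tests were tried on simulated counts with known changes. Tables and figures used Python 3.11.15, pandas 2.3.3, NumPy 2.4.6 and matplotlib 3.10.9. Library totals limit precision, and the common biological coefficient of variation was 6.75%. Some markers of cell types are not reported here.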

Additional observations from a re-analysis of the deposited data

How the results depend on the processing

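The members' median log2 fold change of -0.26 kept its direction under every alternative tried. It was -0.22 with limma-voom, -0.18 with library size alone, -0.24 with upper quartile scaling and -0.30 after a GC and length trend was removed, an alternative chosen after seeing the data. Leaving out each library gave -0.27 to -0.22. Of all genes tested, 8.52% were lower with DESeq2 and 8.82% with library size alone, against 12.1% in the main fit. The number of members lower was 18 with DESeq2, 20 with library size alone and 19 at an adjusted p under 0.01, against 27. It was 17 to 25 with a library left out, and 14 of the 27 were lower in all 4 of those fits, in which the lone library is assumed to vary like the others. In all 8 alternatives with 4 libraries, 17 of the 27 were lower. The number higher was 1 with DESeq2, library size alone, upper quartile scaling or the replicate block, and 0 otherwise. Of the other factors, 30 were lower and 24 with DESeq2, 19 to 35 with a library left out. The number higher was 0 with DESeq2 and at an adjusted p under 0.01, 6 with library size alone and 0 to 3 with a library left out, against 1.

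The replicate number as a block raised the members lower to 30 and the other factors lower to 32. The main fit had no block, as planned, since the study's methods name none. Deviations of same-numbered libraries correlated by 0.0243.

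Some values of members that were not called changed sign. With library size alone NOP56 was at 0.012, NOP58 at 0.080, HEATR1 at 0.020, UTP6 at 0.0085, BMS1 at 0.053, DIMT1 at 0.060, RRP1B at 0.011 and GNL3 at 0.044. With limma-voom NOP58 was at 0.046, BMS1 at 0.0070 and GNL3 at 0.022, and with upper quartile scaling NOP58 was at 0.020. With a library left out NOP58 ran from -0.11 to 0.10, BMS1 from -0.12 to 0.066, NOP14 from -0.0060 to 0.071, DIMT1 from -0.15 to 0.10, BOP1 from -0.28 to 0.0097, NOC2L from -0.22 to 0.031, RRP1B from -0.21 to 0.061 and DDX56 from -0.26 to 0.018. The cause was not tested.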
